A study of Mus musculus with 4 samples.

Results

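The 9 synaptonemal complex genes described here are Sycp1, Sycp2, Sycp3, Syce1, Syce2, Syce3, Tex12, Hormad1 and Hormad2. They were chosen by name, for the place of their proteins in the complex or on the chromosome axis, and all 9 were found among the 18419 genes of the deposited table. Testis cells of male ICR mice, an outbred stock, were sequenced singly in droplets with 10x Genomics chemistry, which reads the 3' end of transcripts and counts each captured molecule once by its barcode, the unique molecular identifier (UMI). There were 4 groups. A0 was the control and received water, A10 received alginate oligosaccharides (AOS, short fragments of a seaweed polysaccharide) at 10 mg/kg, B0 received busulfan and water, and BA10 received busulfan and then AOS at 10 mg/kg. Busulfan, an alkylating drug that kills dividing germ cells, was given once at 40 mg/kg to mice 3 weeks old, and AOS or water was given from the next day. The results text of the study states that these cells were taken after 5 weeks of treatment. Its methods text gives 2 weeks of daily dosing, and this difference in the length of dosing was not settled. Each group was 1 library made from a pool of 6 mice, so animals cannot be told apart, there was no replicate spread, and no p-value could be given. All intervals below are exact 95% intervals that cover counting error only.

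The synaptonemal complex is the protein ladder that holds paired chromosomes together along their length during meiotic prophase in spermatocytes. It assembles in zygotene, is complete in pachytene and comes apart in diplotene. Its side rails, the lateral elements, form on the chromosome axes and contain SYCP2 and SYCP3. HORMAD1 and HORMAD2 coat axes that have not yet paired and leave them as pairing proceeds. SYCP1 is the transverse filament, which spans the gap between the rails like the teeth of a zip. SYCE1, SYCE2, SYCE3 and TEX12 form the central element along the middle, where SYCE2 and TEX12 assemble together and SYCE1 and SYCE3 join the ends of the SYCP1 molecules. Male mice that lack Sycp1 or Sycp3 do not complete meiotic prophase and are sterile.

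The stretches before the start sites of 5 of the genes are shown because these genes stand for the different patterns of level described below. Sycp3, Hormad1 and Sycp1 had their highest levels in an early spermatocyte-like cluster, Syce1 in a later spermatocyte-like cluster and Syce2 in a spermatid-like cluster. Each stretch is 150 bases, ends at the base before the start site, is written 5′ to 3′ on the gene's own strand and comes from RefSeq on GRCm38.p6, the build of the files. Capitals mark matches on either strand to any of 6 short motifs searched for in the surrounding window.
Sycp3 (chr10:88459437-88459586, plus strand): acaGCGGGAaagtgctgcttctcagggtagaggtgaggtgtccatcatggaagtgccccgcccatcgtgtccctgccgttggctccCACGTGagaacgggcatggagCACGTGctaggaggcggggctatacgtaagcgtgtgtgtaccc
Hormad1 (chr3:95559527-95559676, plus strand): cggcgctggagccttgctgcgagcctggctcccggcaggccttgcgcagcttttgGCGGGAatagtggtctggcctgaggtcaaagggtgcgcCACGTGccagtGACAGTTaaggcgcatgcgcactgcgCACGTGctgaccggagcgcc
Sycp1 (chr3:102936101-102936250, minus strand): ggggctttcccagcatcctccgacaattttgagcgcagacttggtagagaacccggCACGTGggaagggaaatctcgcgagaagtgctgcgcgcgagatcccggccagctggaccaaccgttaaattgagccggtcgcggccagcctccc
Syce2 (chr8:84871961-84872110, plus strand): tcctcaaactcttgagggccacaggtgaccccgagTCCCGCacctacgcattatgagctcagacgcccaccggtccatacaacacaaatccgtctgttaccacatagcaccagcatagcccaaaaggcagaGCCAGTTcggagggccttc
Syce1 (chr7:140787855-140788004, minus strand): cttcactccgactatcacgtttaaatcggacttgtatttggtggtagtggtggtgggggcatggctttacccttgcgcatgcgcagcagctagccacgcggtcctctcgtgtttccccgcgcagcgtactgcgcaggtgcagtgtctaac
The windows that were searched run from 250 bases before to 50 bases after each start site, and 32817 such windows were searched in all. The E-box CACGTG was in the windows of 4 of the 9 genes and in 7.15% of all windows, with a pair of copies each in Sycp3 and Hormad1 and single copies in Sycp1 and Tex12. The letters GCGGGA, which occur in E2F sites, were found for 5 of 9 genes and in 6554 of the 32817 windows. AACTGNC, the core of the site of the pachytene factor A-MYB, was found for 4 of 9 genes and in 12.8% of windows. CNCCTCAG, the site described for the meiotic inducer STRA8, was found for 3 of 9 genes and in 7.94% of windows, and in Sycp1 it lies after the start site, outside the stretch shown. TATAAA was found only in the window of Syce3 (13.6% of all windows) and TGACGTCA in none of the 9 (1.79% of windows). The windows of the 9 genes had a median GC content of 60.0% against 52.7% for all windows, and GC content by itself moves how often such letters occur. For 4 genes the start of this annotation is the start of the GENCODE gene, and for the other 5 the nearest window, 2 to 57 bases away, was taken. The stretch shown for Sycp3 therefore reaches 18 bases into the first exon of the GENCODE gene. Hormad1, Syce2 and Syce3 each have a further annotated start, 2, 147 and 240 bases from the GENCODE start, that is not counted above. The further window of Syce2 holds CACGTG, CNCCTCAG and GCGGGA, and that of Syce3 lacks TATAAA. That of Hormad1 holds the same letters as the window counted. The counts thus depend on the start chosen. These matches are letters in a sequence, and no binding was measured.

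The libraries held 8941 (A0), 9682 (A10), 4659 (B0) and 3778 (BA10) cells, with median UMIs per cell of 12685, 10948, 4214 and 17989. B0 was thus the shallowest library, at 25323535 UMIs in total against 91304225 to 150812974 in the others. The lowest UMI number of any cell was 2985 in B0 and 6716 to 9013 in the others, so the limits at which barcodes were taken as cells differed between libraries. Pairs of libraries shared 31 to 135 barcodes. Cells fell into 27 clusters, built without the 9 genes so that these could not define them, and named from other markers. Named clusters resemble spermatogonia (SPG-like), spermatocytes (SPC-like), spermatids (ST-like) or somatic cells. SPC-like cells made up 42.2% (A0), 42.4% (A10), 4.49% (B0) and 69.5% (BA10) of the libraries. ST-like cells made up 56.2%, 56.3%, 0.107% and 10.9%, and somatic-like cells 0.134%, 0.0310%, 77.6% and 3.02%. In B0, 2905 of the 3614 somatic-like cells were in a Leydig-like cluster, the steroid-making cells between the tubules, while in BA10 the 114 were mainly macrophage-like (60 cells) and Leydig-like (49 cells). Clusters that could not be named held 134, 129, 593 and 612 cells. Levels are UMIs summed over cells and scaled to a total of 1000000 (CPM). A 3' UMI count is 1 per captured transcript and is not divided by length, so levels of different genes are set side by side as counts of transcripts.

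The 9 genes did not share a single pattern over the clusters. Among axis genes, Sycp3 had its highest level in cluster 21, an early spermatocyte-like cluster of 286 cells led by Gml2, Meiob, Tex101 and Dazl and filled by the busulfan libraries (167 cells of B0, 117 of BA10). Sycp3 was 1579 CPM in cluster 21 and 710 CPM in cluster 13, an SPC-like cluster of the other libraries (493 cells of A0, 485 of A10). Cluster 13 scored highest for pachytene markers and second for early spermatocyte markers. In the other SPC-like clusters Sycp3 lay between 116 and 370 CPM, and in the elongating-spermatid-like cluster 2 it was 20.1 CPM, 78.6-fold below cluster 21. Cluster 2 held mostly cells of A0 (828) and A10 (1010), so that fold sets different libraries side by side. Against cluster 13, of the same libraries, cluster 2 was 35.4-fold lower. Hormad1 followed the same course, at 466 CPM in cluster 21, 259 CPM in cluster 13 and 6.12 CPM in cluster 2. Hormad2, the less abundant partner, was 62.4 CPM in cluster 21, 21.7 CPM in cluster 13 and 0.727 CPM in cluster 2. Sycp2, which binds SYCP3 in the lateral element, was 379 CPM in cluster 13 and 327 CPM in cluster 21. Cluster 21 differed between its libraries, however. Its Sycp2 was 541 CPM in B0, above cluster 13 in A0 (403 CPM) and A10 (363 CPM), and 199 CPM in BA10, below both. Its Hormad1 was 775 CPM in B0, but 280 CPM in BA10, where the interval overlapped those of cluster 13 in A0 (256 CPM) and A10 (265 CPM).

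Sycp1, the transverse filament, had the highest level of any of the 9 genes in any cluster, at 2222 CPM in cluster 21. The next clusters were cluster 13 at 636 CPM and the SPG-like cluster 22 at 433 CPM. Cluster 22 had 238 cells of B0, 14 of BA10, 1 of A10 and 0 of A0. Its score was 0.876 for spermatogonia and 0.741 for early spermatocytes. Sycp1 varied widely over the other SPC-like clusters. In clusters 11, 5 and 14 it was 34.0, 48.6 and 57.3 CPM, below Sycp2 and Sycp3, and in clusters 12 and 10 it was 124 and 210 CPM, above Sycp2 and Hormad1. In ST-like clusters it was 263 CPM in cluster 3 and 246 CPM in cluster 4, and 14.6 to 24.6 CPM in the elongating-spermatid-like clusters 2, 7 and 8.

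The central element genes fell apart from each other. Tex12 was scarce everywhere and followed Sycp1 at the start, with 50.2 CPM in cluster 21, 35.1 CPM in cluster 22 and 18.7 CPM in cluster 13. Syce3 was highest in cluster 21 at 843 CPM, but stayed between 97.2 and 380 CPM in all ST-like clusters. Syce1 was highest in clusters that scored as pachytene or late spermatocytes, at 955 CPM in cluster 12, 884 CPM in cluster 5 and 866 CPM in cluster 14, and still 256 to 575 CPM in ST-like clusters. Syce2 was lower in most SPC-like clusters than in the SPG-like and ST-like clusters. It was 517 CPM in the SPG-like cluster 22, 299.7 CPM in cluster 21 (350 CPM in B0, 271 CPM in BA10) and 264 CPM in cluster 13. It was 35.5 to 78.1 CPM in clusters 0, 5, 11, 12 and 14 and 188 and 237 CPM in the other SPC-like clusters, 10 and 17, and it was highest in elongating-spermatid-like cluster 2 at 1035 CPM, 13.3-fold above cluster 0. Sycp1 and Sycp3 are among the genes that the study itself used to mark spermatocytes.

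**Figure D1:**
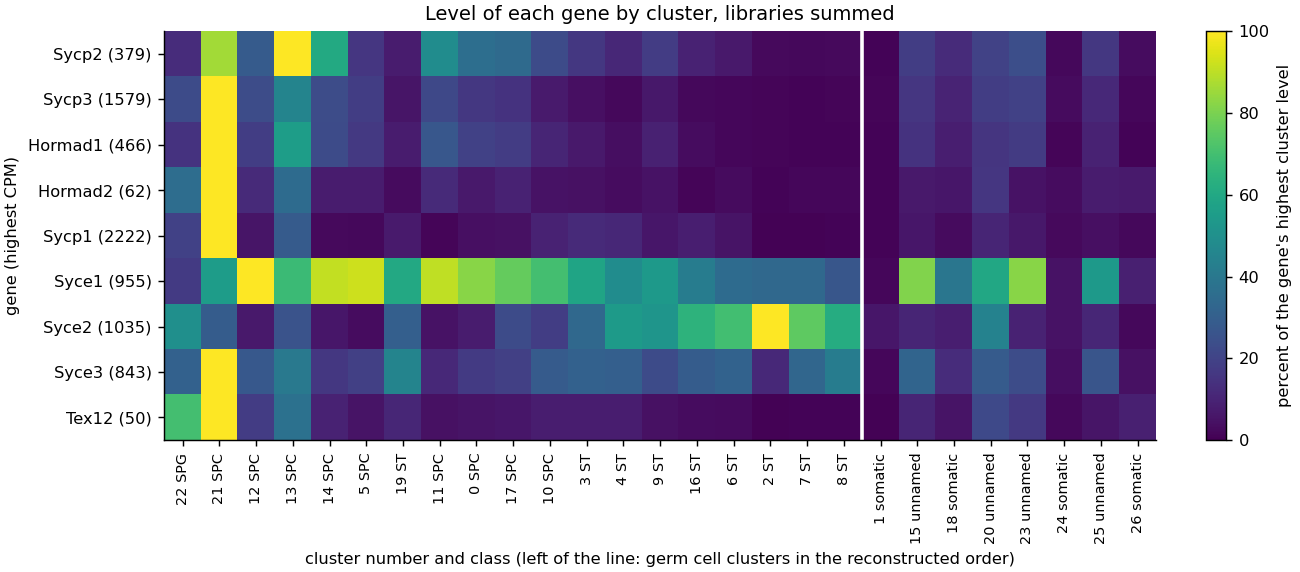
Level of each of the 9 genes (rows, with the highest CPM in brackets) in each of the 27 clusters (columns), as a percent of the gene's highest cluster level; germ cell clusters are in the reconstructed order and the other clusters stand right of the white line. Most genes are brightest at cluster 21 or 13, Syce1 is bright through the later spermatocyte clusters, and Syce2 is brightest in cluster 2.

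The Leydig-like cluster 1 of B0, 2905 cells that should not use these genes, gave the background of that library only. There Sycp3 was 20.7 CPM, Sycp1 20.2 CPM, Syce1 13.6 CPM, Syce3 13.1 CPM, Hormad1 4.28 CPM, Hormad2 0.727 CPM and Tex12 0.242 CPM. Syce2 was again apart, at 59.5 CPM, which is 43.6% of the UMIs of the 9 genes in these cells and above its level in cluster 5 of BA10. The gene overlaps Gcdh, on the opposite strand, by 1829 bases. Gcdh, an enzyme of lysine breakdown, was 19.3 CPM in B0 and 0.212 CPM in A0. Sycp3 overlaps Chpt1 by 13668 bases (25.2 to 38.1 CPM over the libraries) and Tex12 overlaps Il18 by 4507 bases (0.529 to 11.5 CPM), both on the opposite strand. The part of these overlaps, and of free RNA, in the background was not tested. In BA10 the 60 macrophage-like cells of cluster 18 held Syce1 at 829 CPM and Sycp3 at 283 CPM, against 916 and 340 CPM in the SPC-like cells of the same library. Their make-up over the 9 genes was also close to that of the SPC-like cells, with Syce1 at 52.5% and Sycp3 at 17.9% of the UMIs, against 50.3% and 18.6%. They gave 1854 of the 2081 UMIs of the 9 genes in somatic-like cells of BA10, and the 49 Leydig-like cells were too few for a level of their own. Somatic-like cells of BA10 are therefore used for no comparison. A0 and A10 had 12 and 3 somatic-like cells, too few for a level, so the background in those libraries is not known.

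A diffusion order of germ cells was rooted in the SPG-like cluster 22, mostly cells of B0, and cut into 10 parts of equal cell number. A0 and A10 filled all parts, BA10 the first 3 and B0 only the first with at least 50 cells. The ST-like cluster 19 of BA10 (383 cells) had a median position of 0.855. That is before the SPC-like clusters 11 (0.878), 0 (0.886) and 10 (0.891) of A0 and A10. A part can thus hold unlike cells of different libraries. In A0, 7 of the 9 genes had their highest level in the first part. Sycp3 went from 810 CPM there to 404, 326, 264 and 173 CPM in the next parts and to 19.9 CPM in the last. Hormad1 went from 293 to 119 CPM and then to 5.52 CPM, and Sycp2 from 461 to 273 CPM and then to 10.6 CPM. Sycp1 dropped fastest, from 795 to 140 and 45.9 CPM, and had a second, lower summit of 205 CPM in the sixth part. Syce3 had its lowest level, 97.6 CPM, in the third part and was back at 276 CPM in the tenth. Syce1 was highest in the third part at 871 CPM, and Syce2 in the ninth at 872 CPM after a lowest level of 71.1 CPM in the third. A10 gave the same summit part as A0 for all 9 genes. The order is computed from the same cells, and it is a description and not a time course.

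**Figure D2:**
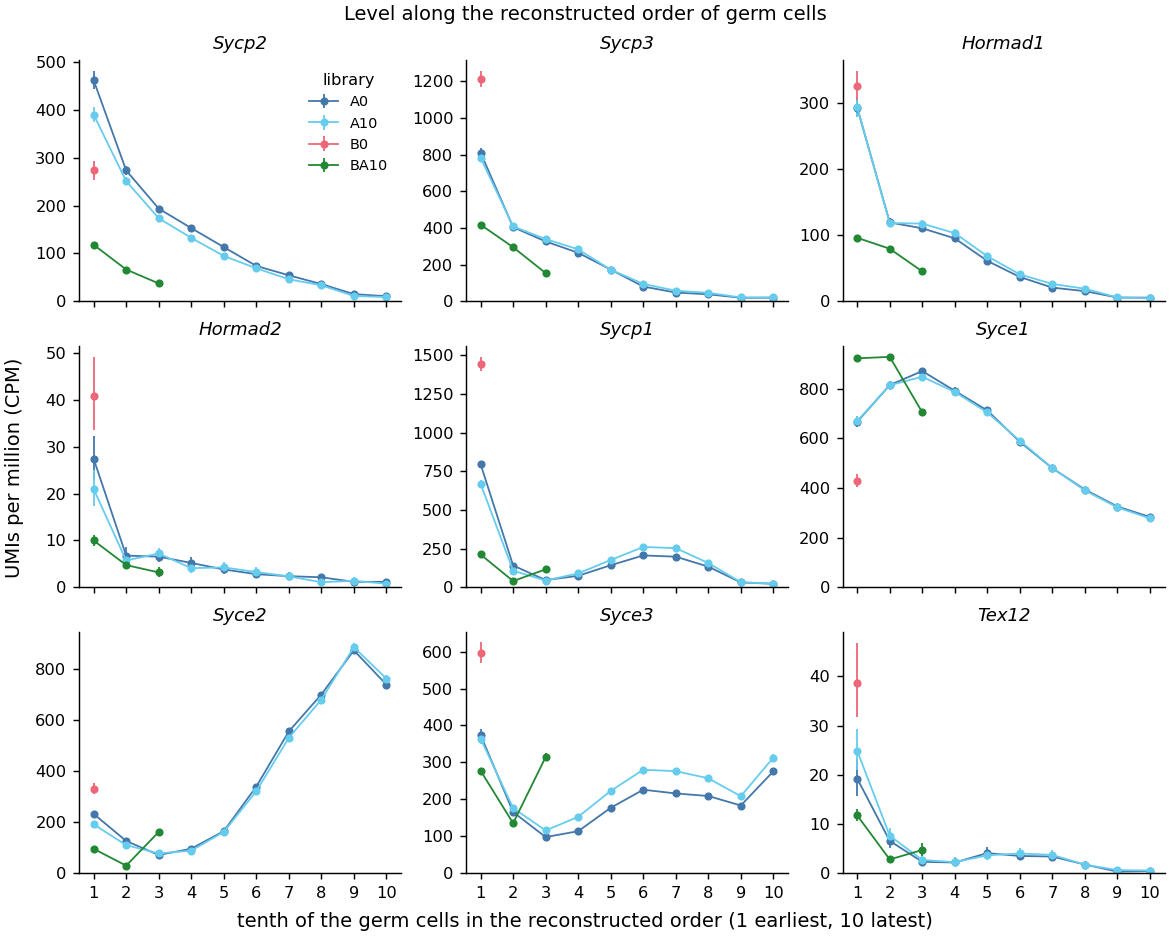
CPM of each gene in the 10 parts of the reconstructed germ cell order (1 earliest, 10 latest), 1 line per library with exact Poisson intervals, for parts with at least 50 cells of that library. Sycp2, Sycp3, Hormad1 and Hormad2 decline from the first part, Sycp1 and Syce3 have a second rise, Syce1 is highest in part 3 and Syce2 in part 9 of A0. A part can hold cells of different classes in different libraries.

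Over 47 units, each a cluster within a library with at least 50 cells, the levels of the 9 genes were compared on the log2 scale. The units share libraries, depth and free RNA, so the correlations are descriptions. Sycp3 and Hormad1 were most alike, with a Pearson correlation of 0.98, and Sycp2 and Hormad1 had 0.95. With the mean of the other 8 genes, Hormad1 had 0.86, Hormad2 0.85, Sycp2 0.82, Sycp3 0.81, Sycp1 and Tex12 0.79 each, Syce3 0.66, Syce1 0.56 and Syce2 -0.07. The partners Syce2 and Tex12, whose proteins assemble together, had -0.11. Outside the 9 genes, the 10 genes whose levels were most like the mean of the 9 were Ankrd31 (0.94), Asz1, Tdrd12, Ccdc73, Dnajc21, Rbmxl2, Ccdc172, Meioc, Ddx43 and Plekha5 (0.88). Ankrd31 acts in placing meiotic DNA breaks, Asz1 and Tdrd12 in the piRNA pathway, and Meioc, also a marker used for naming clusters, in the programme of meiotic prophase. By rank correlation over the same units, 3 of these 10 (Ankrd31, Meioc and Ddx43) stayed among the 10 most alike.

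Several of the genes were often seen in the same cell. After thinning every cell to 5000 UMIs, the median cell of cluster 21 had 7 of the 9 genes in B0 (69 cells reached that depth) and 6 in BA10. In cluster 13 it had 6 in both A0 and A10, in all SPC-like cells 4 in A0, A10 and BA10, in ST-like cells of A0 3, and in the Leydig-like cells of B0 0. At least 5 genes were detected in 100% of cluster 21 cells of B0, in 90.7% of cluster 13 cells of A0, in 33.4% of SPC-like cells of A0, in 11.3% of ST-like cells of A0, and in 1.71% of the Leydig-like cells. Before thinning, a UMI of Sycp3 was seen in 92.2% of SPC-like cells of A0 (median 11963 UMIs), in 33.6% of ST-like cells (median 13083 UMIs) and in 5.34% of the Leydig-like cells of B0 (median 4044 UMIs). Thinned, these shares were 71.1%, 15.2% and 7.19%. All SPC-like and ST-like cells of A0 reached 5000 UMIs, but 2321 of the 2905 Leydig-like cells did not and were left out, so their thinned share is that of the 584 deepest cells and cannot be set against their share before thinning. Tex12, though its protein is part of the central element, was seen in 7.55% of SPC-like cells of A0 before and 2.60% after thinning, against 0.0% of thinned Leydig-like cells (0 of 584 cells, with an exact interval up to 0.630%). The Leydig-like cells are of B0, so their shares are not the background of A0.

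**Figure D3:**
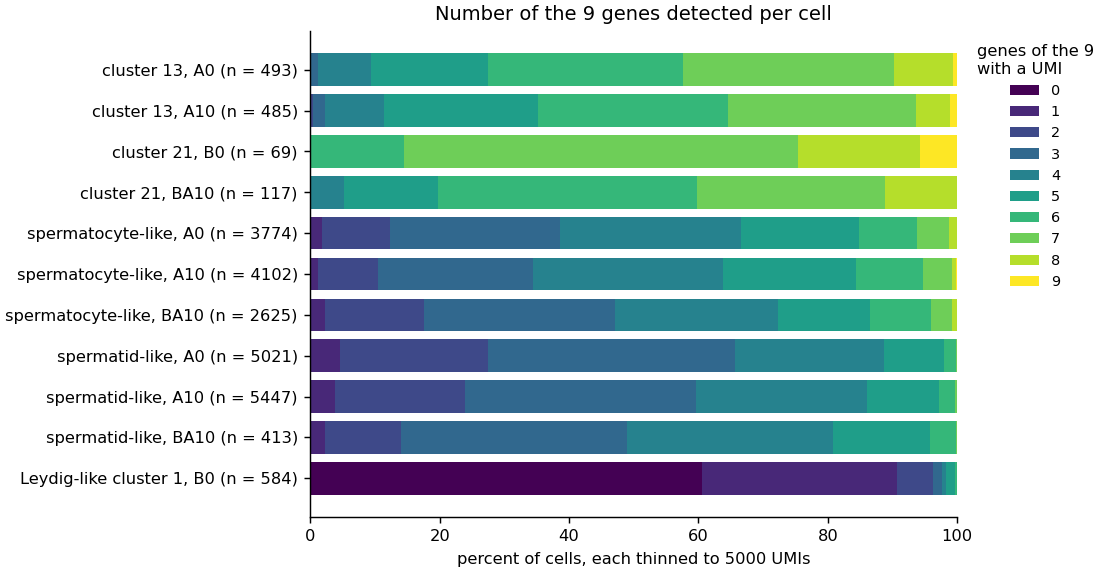
Percent of cells (x axis) with 0 to 9 of the genes detected (colours) after thinning to 5000 UMIs, for clusters and classes with the number of cells that reached that depth. Cells of clusters 21 and 13 mostly hold 5 or more genes, and 60.6% of the Leydig-like cells hold 0.

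Over all cells of a library, Syce1 was the most abundant of the 9 genes in every library, and Tex12 and Hormad2 were the scarcest. Syce1 was at 575, 587, 280 and 854 CPM (in the order A0, A10, B0, BA10). Syce2 was 416, 386, 107 and 92.1 CPM, so that both libraries without busulfan lay above both with it. Sycp3 was 167, 187, 232 and 304 CPM, the reverse arrangement. Sycp1 was 136, 152, 232 and 117 CPM, with B0 highest. Sycp2 was 109, 103, 58.4 and 77.2 CPM, and Syce3 193, 226, 162 and 222 CPM. Hormad1 lay close together at 58.2, 66.4, 59.5 and 77.3 CPM. Tex12 was 3.24, 3.85, 6.24 and 6.48 CPM and Hormad2 4.32, 4.18, 6.44 and 6.24 CPM, so that both scarce genes were higher in the busulfan libraries. From whole-library levels alone, fewer cells of a type and less RNA per cell cannot be told apart. ST-like cells gave 84.5% of the Syce2 UMIs of A0, 0.813% of those of B0 and 33.4% of those of BA10. They made up 56.2%, 0.107% and 10.9% of the cells of these libraries.

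**Figure D4:**
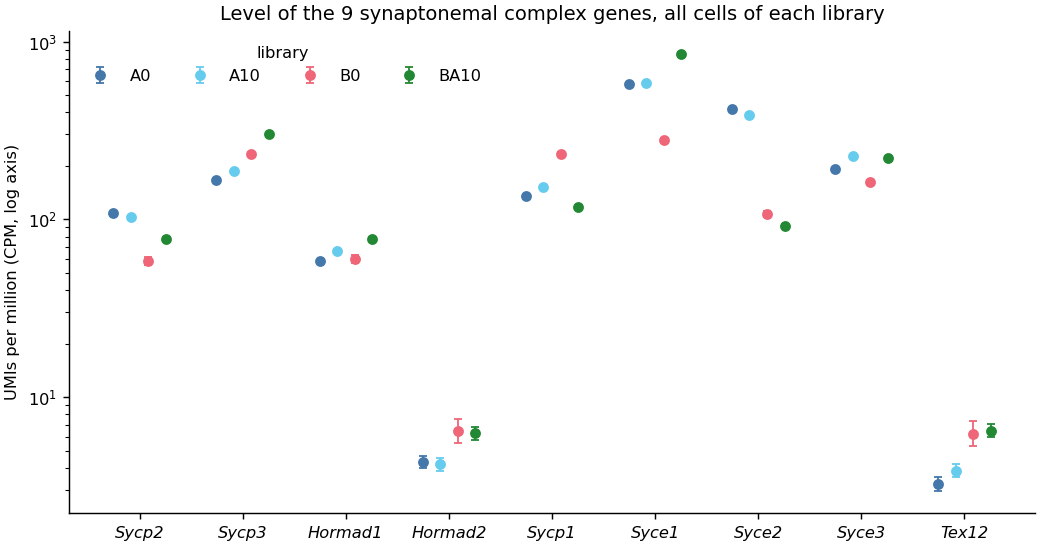
CPM of the 9 genes over all cells of each of the 4 libraries, on a log axis, with exact Poisson intervals where these are wider than the points. Syce2 is lower in B0 and BA10 than in A0 and A10, and Syce1 is lowest in B0 and highest in BA10.

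AOS without busulfan asks whether the oligosaccharides alter these genes in an undamaged testis, and the levels of A10 and A0 were close. None of the 9 genes differed 2-fold over all cells, where 0.0294% of the 13615 genes tested were 2-fold or more higher and 0.0808% lower. Genes were tested where their mean over the libraries was at least 1 CPM, which all 9 passed. The median log2 ratio of the 9 genes was 0.16, beside -0.02 for all genes. In SPC-like cells the median was -0.01 beside -0.02, again with 0 of 9 past 2-fold (0.0367% of all genes higher, 0.0734% lower). In cluster 13, chosen for this comparison after its levels were seen, it was -0.03 beside -0.03, with 0 of 9 past 2-fold (0.0955% higher, 0.588% lower). Syce3 had the highest ratio over all cells, 0.23 (0.20 to 0.26), a 1.17-fold difference, and 4.09% of all genes had a ratio at least as high. It was higher in A10 in 14 of the 15 clusters that both libraries filled with at least 50 cells, and in 13 of them the intervals did not overlap. The exception was cluster 13, at 339 CPM in A10 and 341 CPM in A0. Sycp1 was also higher in A10 in 14 of 15 clusters, with log2 ratios of up to 0.39, and lower in cluster 13 (580 against 698 CPM, -0.27). Its intervals were apart in 7 of the 14. Sycp3 and Hormad1 were each higher in A10 in 13 of 15 clusters, with intervals apart in 5 and 3. Hormad1 in the unnamed cluster 20, at 89.8 against 42.9 CPM from 103 and 69 UMIs, had the only ratio past 2-fold (1.05) among the 9 genes in these 15 clusters. Sycp2, Hormad2 and Syce2 leaned the other way, lower in A10 in 12, 11 and 10 of the 15 clusters, with intervals apart in 5, 0 and 7. Tex12 was higher in 11 clusters and Syce1 in 8, with intervals apart in 0 and 1. Cluster 13 also held elongating spermatid transcripts, with a summed marker level of 16596 CPM in A0 and 14453 CPM in A10 (6 of 6 markers above 0 in both), and their part in its levels was not tested. These clusters are of the same 2 libraries and are not replicates.

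Busulfan alone asks what the loss of dividing germ cells leaves of these transcripts. Over all cells, Syce2 was lower in B0 than in A0 by a log2 ratio of -1.95 (-2.02 to -1.89) and Syce1 by -1.04 (-1.08 to -0.99). The other 7 genes were within 2-fold, from -0.89 for Sycp2 to 0.77 for Sycp1 and Tex12. Of the 9 genes 0 were 2-fold or more higher, against 43.5% of all genes, and 2 of 9 were 2-fold or more lower, against 19.9% of all genes. The median of the 9 was 0.03 and that of all genes 0.58, so relative to all genes the 9 lay at -0.55. On that relative scale Sycp3 (0.47) was at -0.11 and Hormad2 (0.48) at -0.10, while Sycp1 and Tex12 stayed above 0. Among cells with at least 9013 UMIs (448 of B0), Syce1 changed sides, to 0.42, and the median of the 9 was 0.62. That limit also changes the mix of cells. Median UMIs in B0 were 4044 in the Leydig-like cluster 1 and 9859 in the unnamed cluster 15. The part of depth and of cell mix was not tested. In B0, 55.8% of Sycp1 UMIs came from the 167 cells of cluster 21, which were 3.58% of its cells. The same cluster gave 41.5% of Sycp3, 46.5% of Hormad1 and 49.7% of Hormad2 UMIs, but 4.56% of Syce1 UMIs. For Syce1, 70.4% of the UMIs of B0 came from cluster 15, 503 cells that stayed unnamed because Sertoli genes such as Rhox8, Cst9 and Aard were among their leading genes while spermatocyte markers scored highest.

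Restricted to SPC-like cells, B0 gave levels well above A0. Sycp1 was 1967 CPM in B0 against 151 in A0, a log2 ratio of 3.69 (3.61 to 3.77). Tex12 was 41.2 against 4.59 CPM, Hormad2 50.7 against 7.28 CPM, Sycp3 1670 against 321 CPM, Syce3 768 against 157 CPM and Hormad1 470 against 109 CPM. Sycp2 lay at the line, at 395 against 197 CPM, and Syce2 was 220 against 123 CPM. Syce1 alone was lower, at 602 against 785 CPM. In all 6 of 9 genes were 2-fold or more higher (33.4% of all genes) and 0 lower (19.6% of all genes), and the median of the 9 was 2.29 beside 0.35 for all genes. That median was 1.26 among cells with at least 9013 UMIs, the lowest UMI number of any BA10 cell, which 54 SPC-like cells of B0 reached, and 0.85 when clusters were built from 1000 variable genes in place of 2000. Different clusters hold the class in these libraries: of 209 SPC-like cells in B0, 167 were in cluster 21 and 38 in cluster 12, while A0 had 1 cell in cluster 21 and most of its 3774 SPC-like cells in clusters 0, 10, 11, 13, 14 and 17. The markers of early spermatocytes moved in the same direction, from a sum of 316 CPM in A0 to 1534 CPM in B0 (8 of 8 above 0 in both), and from 132 to 459 CPM without Tex101, the most abundant of them. All marker sums here and below use the markers that named the clusters, so they are not separate from the classes. Late spermatocyte markers fell from 1420 to 396 CPM (6 of 6 in both). Pachytene markers fell from 12089 to 7225 CPM (8 of 8 in both), but were 2833 and 2987 CPM without Ldhc, the most abundant of them. Those of Leydig cells were 3.74 CPM (5 of 6 above 0) and 405 CPM (6 of 6), those of Sertoli cells 19.7 and 840 CPM (6 of 6 in both), and those of elongating spermatids 7795 and 14.5 CPM (6 of 6 in both). Their part in the ratios was not tested.

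AOS after busulfan asks whether the oligosaccharides change what busulfan leaves. Over all cells, Syce1 was higher in BA10 than in B0 by a log2 ratio of 1.61 (1.56 to 1.65), and Sycp1 was lower by -0.98 (-1.04 to -0.91). Of the 9 genes 1 was 2-fold or more higher (14.9% of all genes) and 0 lower (39.9% of all genes), with a median of 0.37 beside -0.45. Relative to all genes Syce2 (-0.21) was at 0.23 and Sycp1 at -0.53, and among cells with at least 9013 UMIs the median of the 9 was -0.38, Syce1 was at 0.14, within 2-fold, and the other 8 genes were below 0. In SPC-like cells 8 of 9 genes were 2-fold or more lower in BA10 (31.8% of all genes) and 0 higher (13.3% of all genes), with a median of -2.29 beside -0.37 (-1.36 at that UMI limit, -0.92 with 1000 variable genes). The largest was Sycp1, at 116 CPM in BA10, and Syce1 was again apart at 916 against 602 CPM. As above, the class was held by different clusters, in BA10 by cluster 5 (1538 cells), cluster 12 (961 cells) and cluster 21 (117 cells). Early spermatocyte markers in SPC-like cells summed to 1534 CPM in B0 and 313 CPM in BA10 (8 of 8 above 0 in both; 459 and 70.1 CPM without Tex101) and late spermatocyte markers to 396 and 1462 CPM (6 of 6 in both). Sertoli markers were at 840 and 145 CPM and Leydig markers at 405 and 116 CPM (6 of 6 each in both). Their part in the ratios was not tested.

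Cluster 21 was filled by both busulfan libraries and was compared by itself, a choice made after its levels were seen. Sycp1 was 3621 CPM in B0 and 1403 CPM in BA10, Sycp3 2700 and 922 CPM, Hormad1 775 and 280 CPM, and Sycp2 541 and 199 CPM. These 4 of 9 genes were 2-fold or more lower in BA10, where 26.7% of all genes were, and 0 were higher, where 10.5% of all genes were. Syce3 (1151 and 660 CPM), Hormad2 (89.6 and 46.4 CPM), Tex12 (65.2 and 41.2 CPM) and Syce2 (350 and 271 CPM) were also lower in BA10 but within 2-fold. Syce1 was higher in BA10, at 632 against 357 CPM, a log2 ratio of 0.82 (0.57 to 1.07). In the unnamed cluster 15 Syce1 was lower in BA10 (732 against 810 CPM, -0.15), and in the unnamed cluster 23 higher (842 against 608 CPM, 0.47). The median of the 9 genes in cluster 21 was -0.93 beside -0.21 for all genes. The ratios of the 4 genes past 2-fold were -1.55 for Sycp3, -1.47 for Hormad1, -1.43 for Sycp2 and -1.37 for Sycp1. Early spermatocyte markers summed to 2432 CPM in B0 and 2377 CPM in BA10 (8 of 8 above 0 in both), but most of each sum was Tex101, at 1684 and 2139 CPM. The other 7 were each lower in BA10, like most of the 9 genes, and summed to 748 and 238 CPM. Pachytene markers summed to 4091 (7 of 8) and 7827 CPM (8 of 8), and most of that difference was Ldhc, a lactate dehydrogenase of germ cells, at 1175 and 4812 CPM. The other 7 pachytene markers went both ways, with Hspa2 at 1226 and 1479 CPM and Mybl1 at 165 and 57.5 CPM. The Sertoli markers were at 1281 and 347 CPM and the Leydig markers at 471 and 156 CPM (6 of 6 above 0 in all). Median UMIs per cell were 4406 in B0 and 12396 in BA10. How these move the ratios was not tested. In thinned cells a UMI of Sycp2 was seen in 95.7% of 69 cells of B0 and 61.5% of 117 cells of BA10, of Hormad1 in 97.1% and 73.5%, and of Syce1 in 81.2% and 94.0%, the same direction as the CPM. These shares come from the same UMIs as the CPM. Thinning left out 98 cells of B0, those under 5000 UMIs, and none of BA10, so unlike sets of cells are compared.

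**Figure D5:**
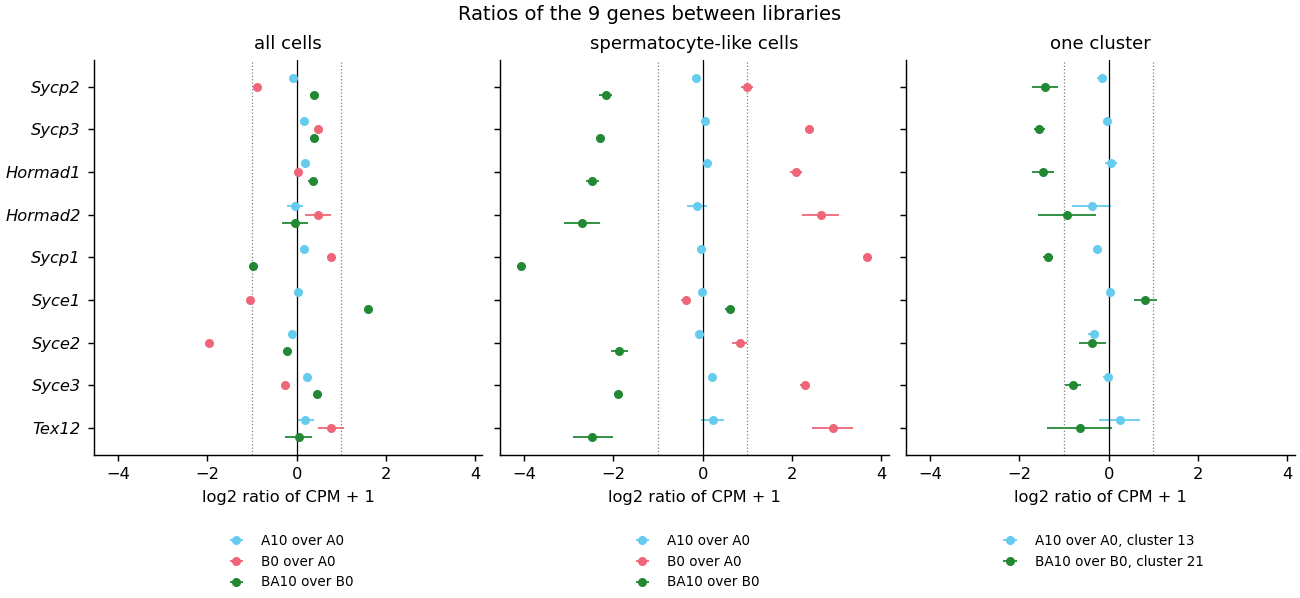
Log2 ratio of CPM + 1 for each gene (rows) over all cells, in SPC-like cells, and in cluster 13 (A10 over A0) or cluster 21 (BA10 over B0), with intervals for counting error and dotted lines at 2-fold. A10 over A0 lies near 0 throughout, and in SPC-like cells Syce1 lies on the other side of 0 from the other 8 genes for B0 over A0 and for BA10 over B0.

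BA10 set against A0 asks how near the pair of treatments comes to the untreated testis. Over all cells Syce2 was lower by -2.17 (-2.21 to -2.12) and Sycp3 higher by 0.86, and 1 of 9 genes was 2-fold or more lower (15.3% of all genes) and 0 higher (14.3%). The median was 0.40 beside 0.36. In SPC-like cells Sycp2 (86.8 against 197 CPM, -1.17) and Syce2 (59.7 against 123 CPM, -1.03) were 2-fold or more lower, 2 of 9 where 11.5% of all genes were. None of the 9 was higher, where 3.3% of all genes were. Sycp3 (340 against 321 CPM) and Hormad2 (6.91 against 7.28 CPM) were close. The median was -0.07 beside 0.05. Here too different clusters hold the class, mainly 5 and 12 in BA10 and 0, 10, 11, 13, 14 and 17 in A0. The elongating spermatid markers in these cells summed to 155 CPM in BA10 and 7795 CPM in A0 (6 of 6 above 0 in both) and the round spermatid markers to 159 and 651 CPM (7 of 7 in both), beside Syce2, which was highest in ST-like clusters. Leydig markers summed to 116 CPM in BA10 and 3.74 CPM in A0, and Sertoli markers to 145 and 19.7 CPM. The part of all these markers in the ratios was not tested. B0 over A0, BA10 over B0 and BA10 over A0 share libraries and are not separate evidence.

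The other genes of meiotic chromosome pairing and recombination were counted from a list of 36, of which 35 were in the table and 32 passed the filter. With AOS alone 0 of 32 were 2-fold different over all cells or in SPC-like cells. For B0 over A0 in SPC-like cells, 18 were higher, where 33.4% of all genes were, and 2 lower, where 19.6% were, with a median of 1.13 beside 0.35 for all genes. By function, the higher genes were 6 of 8 in strand exchange, 5 of 8 crossover factors, 3 of 6 in telomere attachment, 2 of 5 in axis remodelling and DNA breaks, both further genes of the complex, and 0 of 3 cohesins. They included Meiob (3.79), a DNA-binding partner of strand exchange, Dmc1 (3.49), the meiotic recombinase, and 4930447C04Rik (3.42), the mouse Six6os1 gene, whose protein is a further central element component. The 2 lower genes were Rec8 (-3.60), the meiotic cohesin, and Tex11 (-1.23), a crossover factor. Cluster 21, with 167 of the 209 SPC-like cells of B0, held 4 UMIs of Rec8 and 0 of Tex11 over all libraries. Both ratios thus rest on very few UMIs of B0. Among the cohesins on which the axis is built, Stag3 (0.04) and Smc1b (0.32) differed little and Rad21l, which did not pass the filter, was 2.45. Trip13, the ATPase that removes HORMADs from paired axes, was 2.55. For BA10 over B0 in SPC-like cells, 1 was higher (Rec8, 2.24; 13.3% of all genes) and 18 lower (31.8% of all genes), among them 5 of 8 in strand exchange and 5 of 8 crossover factors, with Trip13 at -2.49, Smc1b at -1.02 and Stag3 at -0.30. The Rec8 ratio there has the same very few UMIs of B0 as its base. In cluster 21 the same comparison had 2 higher (Rec8, 1.57, and Rec114, 1.14) and 6 lower, both smaller shares of the 32 than the 10.5% and 26.7% of all genes. Both higher ratios rest on few UMIs, as cluster 21 held 4 of Rec8 and 16 of Rec114 over all libraries. Among the lower genes, AI481877 had 17, Dmc1 38 and Trip13 39. The lower ones were Meiob (-2.58), Trip13 (-2.31), Dmc1 (-1.91), Mlh3 (-1.58), 4930447C04Rik (-1.44) and AI481877, the Shoc1 gene (-1.42).

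Over all cells, B0 over A0 had 6 of the 32 higher, a smaller share than the 43.5% of all genes, and 7 lower, a share near the 19.9% of all genes. The higher ones included Dmc1 (1.37), 4930447C04Rik (1.27), Meiob (1.25), Fkbp6 (1.23) and Ccnb1ip1 (1.13). The lower ones were the crossover factor Msh4 (-1.94), 3 cohesins, Rec8 (-1.62), Stag3 (-1.29) and Smc1b (-1.19), and the telomere attachment genes Ccdc155 (-1.29), Spdya (-1.20) and Terb1 (-1.14), which tie chromosome ends to the nuclear envelope. For BA10 over B0, 10 were higher, where 14.9% of all genes were, and 3 lower, where 39.9% were. The higher were 4 of 6 telomere attachment genes, Ccdc155 (1.77), Spdya (1.63), Majin (1.43) and Terb1 (1.33), Spo11 (1.75), which makes the meiotic DNA breaks, the cohesin Stag3 (1.48), Rnf212 (1.33), and the strand exchange genes Psmc3ip (1.38), 4930432K21Rik (1.31) and Hsf2bp (1.07). The lower included Trip13 (-1.22) and Dmc1 (-1.06). In BA10 over A0 over all cells, where 14.3% of all genes were higher and 15.3% lower, 4 were higher (Fkbp6, 1.38; Majin, 1.20; Ccnb1ip1, 1.11; Spo11, 1.05) and 2 lower (Msh4, -1.43; Rec8, -1.08), and in SPC-like cells (3.3% higher and 11.5% lower) 0 were higher and 2 lower, Rec8 (-1.36) and Mlh3 (-1.05).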

How the data were processed

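The 4 libraries (1 per group, 6 mice pooled) were processed by the authors with Cell Ranger 2.2.0 on mm10 and normalized with Seurat, per the labels and the methods of the study. The methods state a forced cell number, which the differing cell numbers do not match. Deposited values are natural logs, taken by the authors after adding 1 to each gene's share of the cell's UMIs scaled to 10000. This was checked on 18419 genes and 27060 cells. The back-transformed values of each cell summed to 10000, and 100% became whole within 0.001 once divided by the cell's lowest value, so UMIs were recovered.

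Levels are summed UMIs scaled to a total of 1000000 (CPM). Log2 ratios have 1 CPM added, which understates differences of scarce genes, and a gene counted as different past 2-fold. UMI sums have exact Poisson intervals and shares exact Clopper-Pearson intervals (both 95%, counting error only). Clusters used scanpy 1.11.5: 2000 variable genes without the 9 genes (2 of which were among them), 30 components, 15 neighbours and Leiden resolution 1, with no alignment of libraries. Clusters were named by scoring listed markers, each relative to the cluster where it was highest, and averaging over a class. They stayed unnamed where 10 leading genes held more markers of another class, with some leading somatic genes added to those lists after the clusters were seen, or where under 3 markers were detected. Scrublet, with an expected rate of 6%, marked 8.06%, 8.66%, 0.0859% and 1.27% of cells (A0, A10, B0, BA10). In B0 this is 4 cells, and BA10 also lay below the expected rate. Whether the calls worked there was not tested, so they were not relied on, and doublets were kept. The order of germ cells is diffusion pseudotime with 30 neighbours and 15 components. Symbols were matched to GENCODE M21 (17546 of 18419), and promoter sequences are from RefSeq GRCm38.p6. The ratio step was tested on simulated counts.

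Named genes are the 9 genes, listed pathway genes past 2-fold with the cohesins and Trip13, and the 10 most alike genes. Counts of listed genes name a part of their members. The values of 1 listed gene are not reported here. The members and lists were chosen with earlier results of these data known. Alternatives were 10 CPM added, means over cells, a common UMI limit of 9013, ratios relative to the median of all genes, no doublets, no filter, and, for spermatocytes, other clusterings.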

Additional observations from a re-analysis of the deposited data

Results flagged for a closer look

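The AOS ratio (log2) took opposite signs with and without busulfan for several of the 9 genes, and the difference was not tested because no group has more than 1 library. Over all cells, Sycp1 was 0.16 without busulfan (A10 over A0) and -0.98 with it (BA10 over B0), a difference of -1.14. Sycp2 was -0.07 and 0.40 over all cells, a difference of 0.47. In SPC-like cells, Sycp3 was 0.06 and -2.29 (difference -2.35), Syce3 was 0.22 and -1.89 (difference -2.11) and Hormad1 was 0.09 and -2.47 (difference -2.56). Tex12 (0.23 and -2.47) and Syce1 (-0.01 and 0.60) also took opposite signs there. Their intervals without busulfan included 0 (-0.03 to 0.49 for Tex12, -0.03 to 0.01 for Syce1). In the other set of cells, with no UMI limit, each of these genes had the same sign with and without busulfan. In SPC-like cells, Sycp1 was -0.03 and -4.07 and Sycp2 -0.14 and -2.17. Over all cells, Sycp3 was 0.16 and 0.39, Syce3 0.23 and 0.45 and Hormad1 0.19 and 0.37. Among cells with at least 9013 UMIs, the all-cells signs changed. Sycp2 was -0.03 and -0.55 there, so its signs were no longer opposite, while Sycp3 became 0.18 and -0.18, Syce3 0.24 and -0.63 and Hormad1 0.20 and -0.21. Sycp1 over all cells (0.17 and -1.17), and Sycp3 (0.09 and -1.18), Syce3 (0.22 and -1.36) and Hormad1 (0.11 and -1.33) in SPC-like cells, stayed opposite at that limit. The clusters that hold the SPC-like cells differ between these libraries. Within cluster 21, the ratio with busulfan was -1.55 for Sycp3, -0.80 for Syce3 and -1.47 for Hormad1. In the unnamed clusters 15 and 23 it was -0.30 and -1.10 for Sycp3, -0.35 and -0.77 for Syce3, and 0.15 and -1.16 for Hormad1.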

How the results depend on the processing

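No paired analysis was possible because each group is 1 library. Cluster 21 could not be compared at the common limit of 9013 UMIs, which left 16 cells of B0. Median log2 ratios of the 9 genes were set against the medians of the genes' lower and upper counting limits. They stayed between these under every alternative run for A10 over A0 (all cells and SPC-like cells) and for BA10 over A0 in SPC-like cells. The same held for both single-cluster comparisons. These bounds are not a counting interval of the median, because they also reflect the spread between the genes. Over all cells, B0 over A0 (0.03) was -0.27 by means over cells, 0.62 at the common limit and -0.55 relative to all genes. BA10 over B0 (0.37) was 0.69, -0.38 and 0.82 in the same order, and BA10 over A0 (0.40) was 0.52 by means over cells, 0.041 relative to all genes and 0.19 with 10 CPM added. In SPC-like cells, B0 over A0 (2.29) was 1.81 with 10 CPM added, 2.57 by means over cells, 1.26 at the common limit, 1.93 relative to all genes and 0.85 with 1000 variable genes. BA10 over B0 there (-2.29) was -1.85, -2.58, -1.36, -1.92 and -0.92 in the same order and -2.39 at resolution 0.5. At the common limit, which kept 448 of 4659 cells of B0 and so changed its mix of cells, Syce1 in B0 over A0 over all cells was reversed, 0.42 against -1.04. The causes were not tested. Among all values, means over cells and ratios relative to all genes each moved 46 of 90. Adding 10 CPM moved 14 of 90, and leaving out doublets moved 4 of 90, with 4 cells marked in B0. The common limit moved 34, reversed 1 and left 46 the same. For spermatocytes, 1000 variable genes moved 24 and left 12, and either other resolution moved 10 and left 26. Keeping the 9 genes among the variable genes moved 7 and left 29. B0 limits the precision: 3235 of its cells had under 5000 UMIs.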
